A study of Homo sapiens with 6 samples.

Results

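The genes described here are 10 cytokine genes that epithelial tumor cells can transcribe themselves: IL1A, IL1B, IL1RN, IL6, IL18, IL33, IL23A, LIF, CSF2 and CSF3. They were taken by symbol from the deposited expression table, in which all 10 are listed among 27216 rows. The cells were H1975, an established human non-small cell lung cancer line that carries an activating EGFR mutation. Parental cells (n = 3 samples) were labelled as 0 h of Osi. They were compared with adapted cells (n = 3 samples), labelled as 72 h of Osi at 1000 nM. Osi is osimertinib, an inhibitor of the EGFR tyrosine kinase. The paper's supplementary list of compounds gives a lower concentration of Osi than this. Dying cells were washed off before RNA was taken from the adapted cultures, so the adapted samples hold only the cells that stayed attached, and both groups are 1 cell line of wild-type genotype by its label. The table names the parental columns for DMSO, and how long those cells were kept in it is not given, so the drug and time in culture cannot be told apart. Whether the samples were separate cultures is not given either, and the p-values then measure only the spread between these samples.

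Cytokines are secreted proteins through which cells signal to their neighbors and to immune cells. IL-1α and IL-1β, the products of IL1A and IL1B, bind the same receptor, signal through the adaptor MyD88 to NF-κB and MAPK, and are held in check by the receptor antagonist that IL1RN encodes. IL-6 and LIF act through receptors that share the gp130 subunit (IL6ST), CSF2 (GM-CSF) and CSF3 (G-CSF) drive the output and activity of myeloid cells, and in epithelia the EGFR and ERK pathway is known to raise the transcription of several of these genes.

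Levels are on the log2(FPKM + 1) scale. The labels describe RNase R, which degrades linear RNA, before library construction, while the study's methods name total RNA. How this bears on the levels was not tested, and mRNA below means the level listed for a gene. FPKM corrects the number of sequenced fragments for the length of the transcript and the size of the library. The unit was inferred from the values, and since the depth of the samples is unknown, errors are those between replicates. The linear values of all rows summed to between 375342 and 387753 per sample. Pairs of parental samples had r = 0.997 across all rows and pairs of adapted samples 0.991 to 0.996, where rows are not independent replicates. The epithelial markers EPCAM, KRT8, KRT18, KRT19 and CDH1 were high in both groups, with means from 7.45 to 9.87 on the log2 scale. Of these 5, KRT19 (-0.75, limma, adjusted p = 4.74e-04), KRT18 (-0.57, adjusted p = 0.00427) and KRT8 (-0.28, adjusted p = 0.0477, and 0.171 with no filter) fell past the threshold, by amounts like those of IL6 and LIF for KRT19 and KRT18, and the summed level of all 5 was 3044 to 3071 FPKM in parental and 2145 to 2295 in adapted samples. Of 9 immune markers, CD3E and MS4A1 were listed at 0 in all samples, PTPRC was listed at 0 in the 3 parental samples and averaged 0.04 in adapted cells, and CD68, which is a lysosomal protein of many cell types, made up most of the summed level (75.5 to 78.0 FPKM in parental and 15.7 to 30.2 in adapted samples, of which CD68 averaged 75.0 and 21.0). The summed level of 5 fibroblast markers was 3.04 to 3.16 FPKM in parental and 7.65 to 9.21 in adapted samples, nearly all of it COL1A1 (3.06 and 7.86 on average). The 3 endothelial markers were all under the filter and went opposite ways, with mean PECAM1 at 1.35 FPKM in parental and 0.06 in adapted cells, CDH5 at 0.16 and 2.39, and VWF at 0.02 and 0.18. The part of these markers in the results below was not tested.

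Adapted cells held less mRNA of IL1A, IL1B, CSF2 and CSF3 by a wide margin, and less of IL23A, IL1RN, LIF and IL6 by a smaller one. IL18 did not pass the test, and IL33 was listed at 0 in all 6 samples. Of the 10 genes, 9 passed the filter on low values (a mean of at least 1 over the 6 samples, 12656 rows), 8 of these fell past the threshold (limma, adjusted p under 0.05) and 0 rose. Among all rows tested, 26.2% fell and 30.7% rose past the same threshold. With a further limit on size, a log2 fold change of -1 or lower, 4 of the 9 genes were called, against 5.18% of all rows tested. The same 8 genes were lower in every adapted sample than in any parental sample, an arrangement seen in 30.6% of the rows tested. For each of the 8, the two-sided exact permutation test over the samples gave p = 0.1, the smallest that 3 against 3 allow. IL1A, IL1RN and CSF3 averaged under 1 in adapted cells and so passed the filter through the parental samples. In the fit with no filter, all 10 genes were tested and the same 8 fell past the threshold, against 13.5% of the 27216 rows. In bulk RNA, fewer cells that express a gene and less of its RNA per cell cannot be told apart.

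The regions just before the transcription starts of IL1A, IL1B, CSF2 and IL6 are shown. These genes were picked after their changes were seen, and whether the sequences bear on the changes was not tested. The first 3 were the highest in parental cells, and IL6 had the highest mean of the 10 in adapted cells. The sequences are the 250 bases before the start in RefSeq (GRCh38.p14), written 5′ to 3′ on the strand of the gene. RefSeq lists 2 starts for IL1A, 3 for IL1RN and 2 for IL33, and the one nearest to the start of the gene in GENCODE v29 was used, so the positions given hold for that start only. The RefSeq and GENCODE starts differ. The GENCODE starts of IL1A, IL1B and IL33 lie inside these windows, and the windows of IL6, IL23A and IL1RN lie wholly within the GENCODE genes. Capitals mark matches on either strand to 5 motifs: the AP-1 site TGANTCA, the cAMP response element TGACGTCA, the TATA box TATAAA, the cytokine element CK-1 as GAGATTCCNC, and the NF-κB consensus.
IL1A, chr2:112784494-112784743, minus strand: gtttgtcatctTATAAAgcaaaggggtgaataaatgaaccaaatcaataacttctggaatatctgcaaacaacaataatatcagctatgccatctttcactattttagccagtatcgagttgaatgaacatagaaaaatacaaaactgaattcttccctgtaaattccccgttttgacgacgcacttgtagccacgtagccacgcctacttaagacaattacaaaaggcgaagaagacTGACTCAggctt
IL1B, chr2:112836780-112837029, minus strand: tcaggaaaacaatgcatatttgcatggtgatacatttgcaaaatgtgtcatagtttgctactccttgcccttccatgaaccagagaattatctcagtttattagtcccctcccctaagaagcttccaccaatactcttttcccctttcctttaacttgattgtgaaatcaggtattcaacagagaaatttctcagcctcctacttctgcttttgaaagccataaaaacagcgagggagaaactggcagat
CSF2, chr5:132073539-132073788, plus strand: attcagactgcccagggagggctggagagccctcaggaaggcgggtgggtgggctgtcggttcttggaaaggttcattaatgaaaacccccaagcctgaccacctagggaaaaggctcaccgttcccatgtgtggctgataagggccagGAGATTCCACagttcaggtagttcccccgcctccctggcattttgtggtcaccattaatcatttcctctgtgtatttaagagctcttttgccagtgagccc
IL6, chr7:22726950-22727199, plus strand: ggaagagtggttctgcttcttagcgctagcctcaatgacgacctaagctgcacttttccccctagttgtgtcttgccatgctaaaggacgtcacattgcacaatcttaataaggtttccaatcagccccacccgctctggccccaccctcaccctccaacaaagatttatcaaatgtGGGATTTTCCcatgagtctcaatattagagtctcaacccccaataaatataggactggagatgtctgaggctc
IL1A held an AP-1 match that begins 12 bases before the start and a TATA box match at 239 bases. By the GENCODE start of IL1A (112784590), this AP-1 match lies inside the gene. CSF2 held the CK-1 match at 101 bases, IL6 an NF-κB match at 73 bases, and IL1B no match to any of the 5 in this window. Over all 35116 promoter windows of the same length, 6.57% held the AP-1 motif, 9.96% the NF-κB motif, 1.65% the cAMP response element, 0.196% the CK-1 motif and 10.7% the TATA box. RefSeq windows were found for 7 of the 10 genes. Of those not printed, IL23A held an AP-1 match at 77 bases, an NF-κB match at 95 bases and a TATA box match at 62 bases, IL1RN held an AP-1 match at 223 bases, and IL33 held none. These are matches of letters and no binding was measured here.

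The IL-1 genes lie in a cluster on chromosome 2 in GENCODE v29 (GRCh38, the build hg38 that the labels name). IL1A spans 112773915 to 112784590 and IL1B 112829751 to 112836903, both on the minus strand and 45.2 kb apart, and IL1RN lies 270 kb further on the plus strand, from 113107214 to 113134016. IL1A, an alarmin that is active as a precursor and can stay bound to the cell, was 5.84, 5.74 and 5.72 in the parental samples and 0.92, 0.94 and 0.98 in the adapted samples. The groups were far apart, and the adapted samples had an SD of only 0.03. Its log2 fold change was -4.82 (SE 0.06, limma, adjusted p = 1.14e-07), the 8th largest fall of the 12656 rows tested on the log2(FPKM + 1) scale. On the linear scale it went from 53.5 ± 2.37 to 0.93 ± 0.04 FPKM (SD, n = 3 each), which is 57.5-fold lower.

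IL1B encodes the form of IL-1 that is cut by caspase-1 before its release. It was 5.71, 5.76 and 5.68 in parental and 1.52, 1.14 and 1.40 in adapted samples. All adapted values were again well below all parental values, with more spread among them than for IL1A. The log2 fold change was -4.36 (SE 0.10, adjusted p = 5.52e-07), and the linear level went from 51.6 ± 1.32 to 1.57 ± 0.34 FPKM (SD, n = 3 each), 32.9-fold lower. In parental cells IL1A and IL1B had overlapping levels, with means of 5.77 and 5.72, whereas in adapted cells IL1B was the higher of the pair in all 3 samples.

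IL1RN, the antagonist, was much the lowest of the trio in parental cells, at 1.40, 1.70 and 1.68, and was 0.39, 1.03 and 0.62 in adapted cells. The groups did not overlap, and the adapted samples were spread more widely than the parental ones. Its log2 fold change was -0.92 (SE 0.17, limma, adjusted p = 0.00346). The difference between agonist and antagonist was then computed within each sample. IL1A exceeded IL1RN by 4.18 ± 0.22 on the log2(FPKM + 1) scale in parental cells and by 0.27 ± 0.32 in adapted cells (SD, n = 3 each), and in adapted replicate 2 IL1RN was the higher. IL1B exceeded IL1RN by 4.12 ± 0.16 and 0.68 ± 0.52. Both narrowed without overlap (exact permutation test, two-sided, p = 0.1 with n = 3 each, and 0.125 adjusted over the 5 differences computed). In adapted cells IL1A, IL1B and IL1RN averaged 0.93, 1.57 and 0.63 FPKM. At such low levels the pseudocount of 1 shrinks differences on this scale, so the size of the narrowing depends on it. IL1A minus IL1B went from 0.05 ± 0.07 to -0.40 ± 0.20 (exact permutation test, p = 0.1, adjusted 0.125), so that IL1A had fallen further than IL1B in these samples by 0.46 on the log2 scale, or by 0.73 with a pseudocount of 0.1.

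The remaining IL-1 family members among the 10 behaved differently. IL18 (chromosome 11, 112143251 to 112164117), which encodes a cytokine that epithelia make constantly and store as a precursor, was 3.93, 3.9997 and 3.998 in parental and 4.05, 3.50 and 3.43 in adapted samples. Adapted replicate 1 was above all parental samples and the other adapted samples were below them. The log2 fold change of -0.32 did not pass the threshold (95% interval -0.69 to 0.05, limma, adjusted p = 0.121), and without adapted replicate 1 it was -0.51 and did (adjusted p = 1.92e-04). The gene AP002884.3 overlaps IL18 on the opposite strand and was at 0.26 ± 0.09 in parental and listed at 0 in the 3 adapted samples, and since no strand setting is given for the counting, shared reads cannot be told apart. IL33, a nuclear alarmin, was listed at 0 in every sample and no fold change was computed.

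CSF2 (chromosome 5, 132073790 to 132076170), which encodes the myeloid growth factor GM-CSF, was the highest of the 10 in parental cells, at 6.21, 6.20 and 6.18. In adapted cells it was 2.81, 1.51 and 1.84. Adapted replicate 1 held the most, and all 3 were far below the parental samples. The log2 fold change was -4.14 (SE 0.29, limma, adjusted p = 3.92e-05), the 14th largest fall of the rows tested, against the 12th for IL1B. The mean linear level went from 72.3 ± 0.77 to 3.47 ± 2.21 FPKM (SD, n = 3 each), 20.8-fold lower.

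CSF3 (chromosome 17, 40015361 to 40017813), the gene of the neutrophil growth factor G-CSF, was 2.83, 2.46 and 2.66 in parental samples. In adapted samples it was 0.05 and 0.42, and it was listed at 0 in adapted replicate 3. These correspond to 4.51 to 6.11 FPKM in parental samples and at most 0.34 FPKM in adapted samples, with no overlap. The log2 fold change was -2.50 (SE 0.15, limma, adjusted p = 1.83e-05) with a pseudocount of 1 and -4.90 with one of 0.1, since the adapted values are close to 0. For the same reason the difference between CSF2 and CSF3, which went from 3.54 ± 0.18 to 1.90 ± 0.84 (exact permutation test, p = 0.1, adjusted 0.125), changed by -1.65 with a pseudocount of 1 and by 0.39 with one of 0.1, and no order of the falls of CSF2 and CSF3 is given.

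IL6 (chromosome 7, 22725884 to 22732002), which encodes the main ligand of STAT3 signaling in inflammation, was 4.75, 4.76 and 4.78 in parental and 4.44, 3.88 and 4.08 in adapted samples. Its fall was small beside those of IL1A, IL1B and CSF2 and still larger than the spread between replicates. The log2 fold change was -0.63 (SE 0.13, limma, adjusted p = 0.00516), or 1.56-fold lower in mean FPKM (26.2 ± 0.30 to 16.7 ± 3.55, SD, n = 3 each). STEAP1B, which overlaps IL6 on the opposite strand, was at 1.95 ± 0.16 and 1.80 ± 0.13.

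LIF (chromosome 22, 30240447 to 30246851), a gp130 cytokine known for keeping mouse embryonic stem cells undifferentiated, was 4.34, 4.30 and 4.35 in parental and 3.57, 3.71 and 3.62 in adapted samples. Its adapted samples were close together, and its log2 fold change of -0.70 had the narrowest interval of the 9 genes (95% interval -0.84 to -0.55, limma, adjusted p = 1.02e-04). In the annotation 2 antisense genes overlap LIF, and neither was matched to a row of the table. IL6 exceeded LIF by 0.43 ± 0.03 in parental and by 0.50 ± 0.35 in adapted cells (SD, n = 3 each), and this change of 0.07 was within the spread between replicates (two-sided exact permutation test, p = 0.7, adjusted 0.7). Without adapted replicate 1 it was -0.12.

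IL23A (chromosome 12, 56334174 to 56340410) encodes the p19 subunit of IL-23, which is secreted only together with the p40 subunit from IL12B. IL23A was 4.24, 4.31 and 4.23 in parental and 3.07, 3.54 and 3.42 in adapted samples. The groups were well separated, with a log2 fold change of -0.92 (SE 0.12, limma, adjusted p = 5.53e-04), 1.97-fold lower in mean FPKM. IL12B, named after its values were seen, was listed at 0 in all 6 samples.

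**Figure D1:**
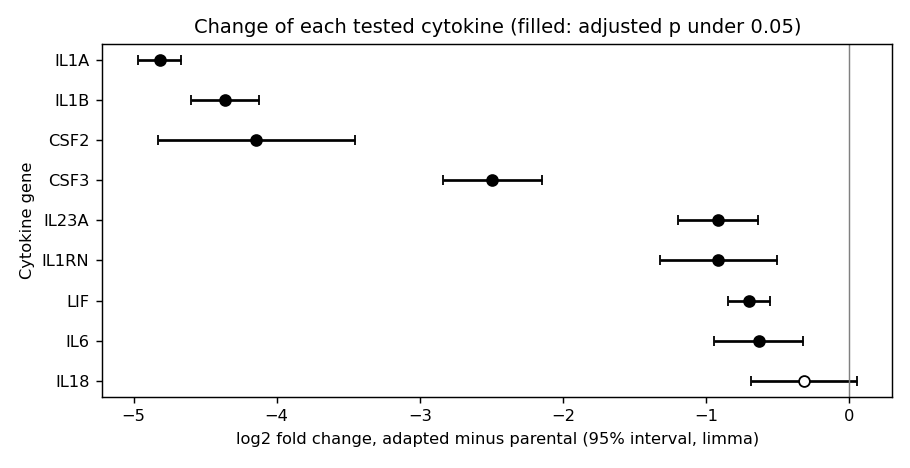
Log2 fold change of the 9 tested cytokine genes (horizontal axis, adapted minus parental, on the log2(FPKM + 1) scale) with 95% intervals from limma, 1 row per gene (vertical axis), filled where the adjusted p was under 0.05. IL1A, IL1B and CSF2 lie beyond -4, CSF3 at -2.50, the next 4 genes between -0.92 and -0.63, and the interval of IL18 includes 0.

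The order of the 10 genes by level changed with these falls. In parental cells it ran CSF2, IL1A, IL1B, IL6, LIF, IL23A, IL18, CSF3, IL1RN and IL33, with neighbors overlapping in their sample values only for IL1A with IL1B and for LIF with IL23A. In adapted cells it ran IL6, IL18, LIF, IL23A, CSF2, IL1B, IL1A, IL1RN, CSF3 and IL33. Here IL6 with IL18, IL18 with LIF, CSF2 with IL1B, IL1A with IL1RN, IL1RN with CSF3, and CSF3 with IL33 overlapped, whereas LIF and IL23A did not. The 10 genes summed to 259.8 to 265 FPKM in parental and to 52.0 to 63.6 FPKM in adapted samples, so the mean sum was 4.70-fold lower. CSF2, IL1A and IL1B made up 67.5% ± 0.56 of the parental sum and 10.4% ± 3.09 of the adapted sum (SD, n = 3 each). IL6, IL18, LIF and IL23A made up 29.7% ± 0.57 and 88.2% ± 2.15. Within the adapted group no sample was high throughout: replicate 1 held the highest value for IL1B, IL6, IL18 and CSF2 and the lowest for IL1A, IL1RN, IL23A and LIF.

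**Figure D2:**
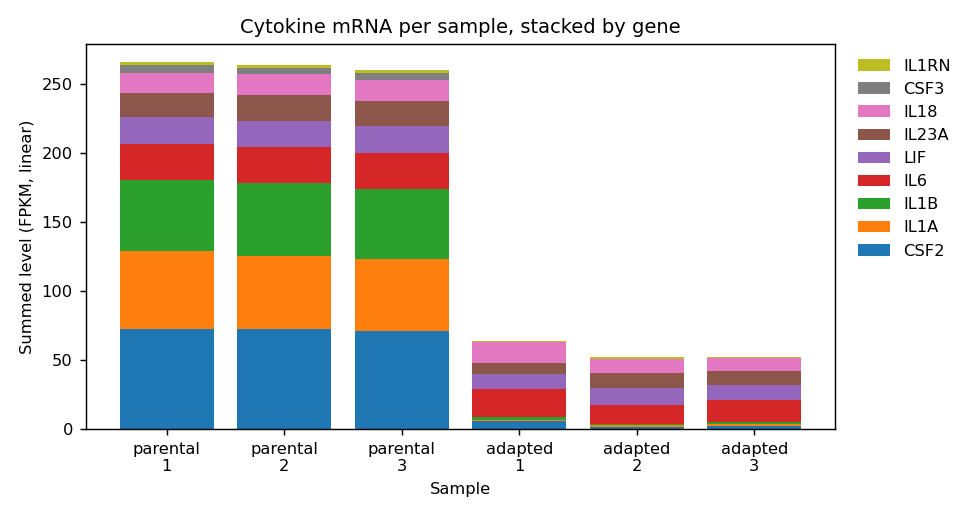
Summed level of the cytokine genes in FPKM (vertical axis, linear from 0) in each of the 6 samples (horizontal axis), stacked by gene, without IL33, which was listed at 0. The 3 parental bars reach 259.8 to 265 and are mostly CSF2, IL1A and IL1B, and the 3 adapted bars reach 52.0 to 63.6 and are mostly IL6, IL18, LIF and IL23A.

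Of 16 genes for the receptors of these cytokines, 7 passed the filter, of which 3 rose, 0 fell and 4 did not pass the threshold, with a median log2 fold change of -0.07 against 0.028 over all rows tested. Of all those rows, 30.7% rose and 26.2% fell past the threshold. CSF2RA, the ligand-binding subunit for GM-CSF, averaged 2.31 ± 0.10 before and 3.42 ± 0.13 after adaptation (SD, n = 3 each) and rose past the threshold (limma, adjusted p = 8.17e-05), while CSF2RB, the β subunit needed for its signal, was listed at 0 in all samples. LIFR rose from 1.27 ± 0.07 to 1.99 ± 0.36 (adjusted p = 0.00881), a call that was lost with no filter (adjusted p = 0.0532), and IL6ST, which encodes gp130, rose from 4.39 ± 0.09 to 4.96 ± 0.14 (adjusted p = 0.00127). IL6R was 2.82 ± 0.03 and 2.68 ± 0.08 (adjusted p = 0.132). For IL-1, the signaling receptor IL1R1 was 2.54 ± 0.01 in parental and 2.34 ± 0.11 in adapted cells (adjusted p = 0.0725), and its partner IL1RAP was 3.06 ± 0.04 and 2.96 ± 0.11 (adjusted p = 0.278). The inhibitory relative SIGIRR was 3.74 ± 0.07 and 3.67 ± 0.11 (adjusted p = 0.469). IL1R1 passed the threshold after quantile normalization (-0.25, adjusted p = 0.0317) and without adapted replicate 1 (-0.22, adjusted p = 0.044). The decoy receptor IL1R2 averaged 0.64 and 0.38 and was under the filter. CSF3R, IL23R and IL12RB1, subunits of the receptors for G-CSF and IL-23, were also under the filter and averaged 0.19 or less in both groups.

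Of 18 genes for the processing and release of IL-1 family cytokines, 13 passed the filter, 5 rose, 1 fell and 7 did not pass (median 0.16). The shares over all rows tested were 30.7% that rose and 26.2% that fell. NINJ1, which drives rupture of the plasma membrane in dying cells, rose by 0.54 (limma, adjusted p = 0.00112), GSDME, a pore-forming gasdermin, by 0.30 (adjusted p = 0.0182) and CASP4, the caspase that senses lipopolysaccharide inside the cell, by 0.28 (adjusted p = 0.0107). The call of GSDME was lost without parental replicate 1 (adjusted p = 0.0586) or 2 (0.0739). CASP8, an initiator caspase, fell by 0.46 (adjusted p = 0.00129). Without adapted replicate 1, the number that fell was 3.

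In the relay from the IL-1 receptor, 12 of 13 genes were tested, 4 rose, 2 fell and 6 did not pass (median 0.07), where 30.7% of all rows tested rose and 26.2% fell. The adaptor gene MYD88 averaged 3.88 ± 0.12 before and 5.47 ± 0.34 after adaptation (SD, n = 3 each), a rise past the threshold (limma, adjusted p = 1.86e-04). IRAK2, a kinase of the same complex that sustains NF-κB signaling, fell from 4.06 ± 0.09 to 2.49 ± 0.12 (adjusted p = 1.29e-05), so the changes of MYD88 and IRAK2 were of like size, 1.59 and -1.58 on the log2 scale, in opposite directions. TAB2 fell by 0.51 (adjusted p = 0.00185), its relative TAB3 rose by 0.40 (adjusted p = 0.00614), and TRAF6, the ubiquitin ligase downstream of the IRAKs, rose by 0.39 (adjusted p = 0.0244). The call of TRAF6 was lost in 7 of the alternative fits, with adjusted p from 0.0537 to 0.0825. Without parental replicate 3, the number of relay genes that rose was 2.

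Cytokine mRNAs are short-lived because proteins that bind AU-rich and stem-loop elements speed their decay. Of 14 genes that regulate such mRNAs, all were tested, 2 rose, 6 fell and 6 did not pass (median -0.17). Beside these counts, 30.7% of all rows tested rose and 26.2% fell. The largest falls were in genes that promote decay: ZFP36 (tristetraprolin) went from 4.98 ± 0.05 to 3.01 ± 0.20, ZC3H12A (the endonuclease Regnase-1) from 6.28 ± 0.04 to 4.74 ± 0.21 and ZFP36L2 from 4.89 ± 0.11 to 3.83 ± 0.12 (SD, n = 3 each), with adjusted p of 1.09e-05, 3.29e-05 and 7.79e-05 (limma). TIA1, a translational repressor, rose by 0.46 (adjusted p = 0.00136) and RC3H1, the decay factor Roquin-1, by 0.44 (adjusted p = 0.00335). The number that rose was 4 without adapted replicate 1, without adapted replicate 2, and after rescaling without the mitochondrially encoded genes.

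Among 32 other cytokine genes, 13 passed the filter, 3 rose, 6 fell and 4 did not pass (median -0.39). For comparison, 30.7% of all rows tested rose and 26.2% fell past the threshold. LTB, a member of the TNF family, fell from 2.99 ± 0.07 to 1.18 ± 0.09, IL36G, an epithelial IL-1 family agonist whose gene lies in the same cluster, from 2.41 ± 0.14 to 0.78 ± 0.07, and EBI3, a subunit of IL-27 and IL-35, from 3.14 ± 0.11 to 1.76 ± 0.26 (SD, n = 3 each), with adjusted p of 6.19e-06, 2.1e-05 and 1.77e-04 (limma). The other 3 that fell, named after their values were seen, were TNF (-1.01), IL36RN (-0.42) and CLCF1 (-0.39). The last of these lost its call in 5 alternative fits and IL36RN in 9. Other cytokine genes rose in the same cells: IL32, an intracellular and secreted inflammatory protein, from 0.88 ± 0.32 to 3.99 ± 0.16 (adjusted p = 1.16e-05), KITLG, the ligand of KIT, from 3.18 ± 0.07 to 4.79 ± 0.32 (adjusted p = 1.24e-04), and CSF1, the macrophage growth factor, from 3.76 ± 0.03 to 4.82 ± 0.12 (adjusted p = 3.78e-05). The colony-stimulating factors therefore moved in opposite directions, with CSF1 higher and CSF2 and CSF3 lower in every adapted sample than in any parental sample. IL36G, TNF and IL36RN averaged under 1 in adapted cells and so passed the filter through the parental samples. IL32 averaged under 1 in parental cells and passed it through the adapted samples. In the limma fit with no filter, IL36G, TNF and IL32 still passed the threshold (adjusted p = 9.24e-04, 0.00748 and 0.00103) and IL36RN did not (0.139).

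**Figure D3:**
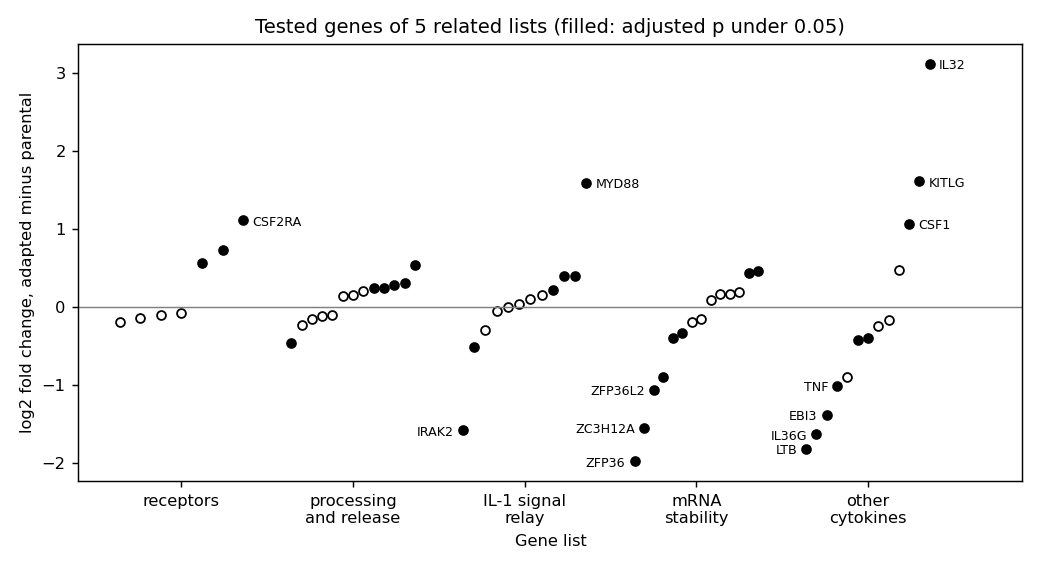
Log2 fold change (vertical axis, adapted minus parental) of each tested gene in 5 lists (horizontal axis), filled where the limma adjusted p was under 0.05, with names at an absolute log2 fold change of 1 or more. CSF2RA, MYD88, IL32, KITLG and CSF1 lie above 1, and IRAK2, 3 mRNA decay genes, LTB, IL36G, EBI3 and TNF lie below -1.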

How the data were processed

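RNA was sequenced from 3 parental and 3 adapted samples of H1975 cells, grouped by the sample titles, and the DMSO and OSI columns were assigned by group and replicate number. The authors deposited 1 table of log2 values with 27216 rows. The unit is not named and was inferred as log2(FPKM + 1). The ground was that 2 to the power of the value, minus 1, had 6 decimals in all but 147 rows. None of these rows was among the 10 cytokines. The decimals bear on the log2 transform and the pseudocount of 1. By themselves they do not tell FPKM from another scaled unit. The submitters' processing notes name Bowtie2 2.1.0, STAR, edgeR and hg38 with no roles, the study's methods name DESeq2, and the quantifier is not given in the sources used here. The labels describe RNase R, which degrades linear RNA, before library construction, while the methods name total RNA. How this bears on the levels was not tested. Low values in parental replicates 1 and 2 showed no steps of single reads. Of 1288 rows detected and under 0.1 FPKM in both, no more than 1.48% shared a ratio between them (bins of 0.02, log2). The adapted samples were not checked in this way.

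A count test could not be run on log2 values, so all rows with a mean of at least 1 were fitted with limma 3.58.1 in R 4.3.3 (eBayes with a trend), unpaired, with Benjamini-Hochberg adjustment over all rows tested and a threshold of 0.05. The fit was tested on simulated data. Single values were tested with exact permutation tests (scipy 1.17.1, Python 3.11.15). The alternatives concerned the pseudocount, the filter, scaling, eBayes settings, a replicate block, each sample left out, subsets of rows and a fold limit. The 10 genes, the related lists and the alternatives were chosen with earlier results of these data known. From each related list, up to 3 genes per direction were named, by size of change among those past the threshold whose groups did not overlap. Receptor subunits were named for every cytokine past it.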

Additional observations from a re-analysis of the deposited data

How the results depend on the processing

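The fall of IL1A, IL1B, IL1RN, IL6, IL23A, LIF, CSF2 and CSF3 passed the threshold in every alternative fit in which the gene was tested (17 or 18 fits each). The log2 fold change ranged from -5.70 to -4.78 for IL1A, -4.97 to -4.26 for IL1B, -4.52 to -3.87 for CSF2, -4.90 to -2.41 for CSF3, -1.67 to -0.77 for IL1RN, -1.02 to -0.78 for IL23A, -0.74 to -0.65 for LIF and -0.79 to -0.51 for IL6. IL18 was lower in all of its 18 fits and passed in 1, that without adapted replicate 1. The number of cytokines that fell was 8 in most fits, 6 with the stricter filter (a mean of at least 3), which leaves out IL1RN and CSF3, and 4 with a limit of 1 on the absolute log2 fold change. Leaving out each sample in turn gave 8 to 9 genes that fell and 0 that rose. With the replicate block 8 fell and 0 rose. Same-numbered samples did not deviate together (correlations of -0.05, -0.03 and -0.02 across rows), so the numbers were not taken to pair the samples. Among 59 tested genes of the related lists, 981 of 1037 alternative fits kept the side of the threshold, 29 lost a call and 27 gained one. In 0 fits did a called direction turn, but genes not past the threshold could change sign. IRAK4, for example, was 0.008 in the main fit and -0.027 after quantile normalization. The median of all rows moved from 0.028 to 0.07 after rescaling without the mitochondrially encoded genes. Depth is unknown, which limits what can be said of CSF3 in adapted cells and of IL33.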
